A study of Mus musculus with 3 samples.

Results

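The genes described here encode the proteins of the mouse mitochondrial ribosome, taken by name: every array probe whose gene symbol, as given with the array or as updated, begins with Mrpl or Mrps and a digit. The rule took 130 of 41174 probes, for 78 genes, among 22050 measured features (a gene, or a probe without a plain gene name). A probe was kept where, on 2 arrays or more, it read well above background in Cy5 or Cy3. This left 126 probes, and each of the 78 genes kept at least 1 such probe. Each array held RNA of 1 individual Plk1(+/-) aorta in the dye Cy5 and RNA of a single pool of 3 WT aortas in Cy3. All animals were 3 to 5 months old and of the 129/CD1 strain. Plk1 encodes polo-like kinase 1, which drives entry into and passage through mitosis.

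The mitochondrial ribosome makes the small set of respiratory chain subunits that mitochondrial DNA encodes. Its RNA parts come from mitochondrial DNA, whereas all of its proteins are encoded in the nucleus, made in the cytosol and imported. A large subunit (Mrpl) carries the peptidyl transferase centre and a small subunit (Mrps) binds the messenger and decodes it. Part of the proteins have a counterpart in bacteria and part are specific to mitochondria. In muscle and fat, the genes of mitochondrial translation are known to vary with mitochondrial content.

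By structure, 51 of the 78 genes encode large subunit proteins and 26 small subunit proteins. Mrps18a and Mrps30 were counted with the large subunit, where their proteins are known to sit despite the name. Mrps36 was set apart, because its protein is known as a part of the oxoglutarate dehydrogenase complex rather than of the mature ribosome. The genes lie on 17 chromosomes by the array's mm7 positions, with 11 of them on chromosome 11.

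Updated names brought in 5 probes: both probes of Mrpl42, both of Mrpl57 and the probe of Mrpl58, which carry older names on the array. On every array all 78 genes read well above background in Cy5 and in Cy3. Their median log2 intensity, averaged over both dyes, was 13.1, against 8.89 over all features without a saturated spot. Mean signals of the members' probes, one for each gene, lay between 1345 and 65224 in Cy5 and between 551 and 34496 in Cy3. In 6 genes (Mrpl33, Mrpl28, Mrpl51, Mrpl20, Mrps33 and Mrps16) a Cy5 spot reached the scanner's ceiling on at least 1 array, so their ratios are given without a fold. The other 72 genes had no saturated spot, and summaries below are over these 72.

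Some facts of the arrays bear on every value. All arrays ran with the same dye orientation, so dye and genotype cannot be told apart, and the pool counts as 1 WT sample whose own spread enters no test. A log2 ratio is that of the Plk1(+/-) aorta over the WT pool, after loess normalization within the array, which sets the typical ratio at each intensity near 0. Well above background in Cy5 were 77.0% to 80.8% of probe spots, and in Cy3 66.0% to 69.0%. Plk1 itself had log2 ratios of -0.06, -0.08 and 0.42 (adjusted p = 0.706, limma). Which part of Plk1 was altered is not given in the labels, so whether the probe could show the loss of 1 allele is unknown. The number of arrays limits the precision.

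None of the 78 mitochondrial ribosomal protein genes differed between Plk1(+/-) aortas and the WT pool at an adjusted p under 0.05 (limma, two-sided, ratio against 0, Benjamini-Hochberg adjustment over all features). Over all features 0.925% passed, 0.0363% higher and 0.889% lower, and among features without a saturated spot 0.149% passed. The 72 unsaturated genes had median log2 ratios of 0.04, 0.04 and 0.0022 in Plk1(+/-) aortas 1, 2 and 3. All features without a saturated spot had medians of 0.04, 0.01 and 0.04 on the same arrays. The median of the genes' mean log2 ratios was 0.04, and that over all such features was 0.04 as well. No feature passed without aorta 2, without aorta 3 or with saturated features left out, and the members called were 0 in each of these fits.

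At an unadjusted p under 0.05, 6 of the 72 genes (8.33%) passed, all of them higher in Plk1(+/-) aortas. Of all unsaturated features 17.8% passed, 9.33% higher and 8.48% lower. Without aorta 1 the members' count was 1, without aorta 2 it was 2 and without aorta 3 it was 4. The ratio was above 0 on all 3 arrays for 21 genes and below 0 on all 3 for 11. The same held for 26.8% and 17.9% of unsaturated features. In bulk tissue, a lower level per cell and fewer cells that hold the transcript cannot be told apart.

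**Figure D1:**
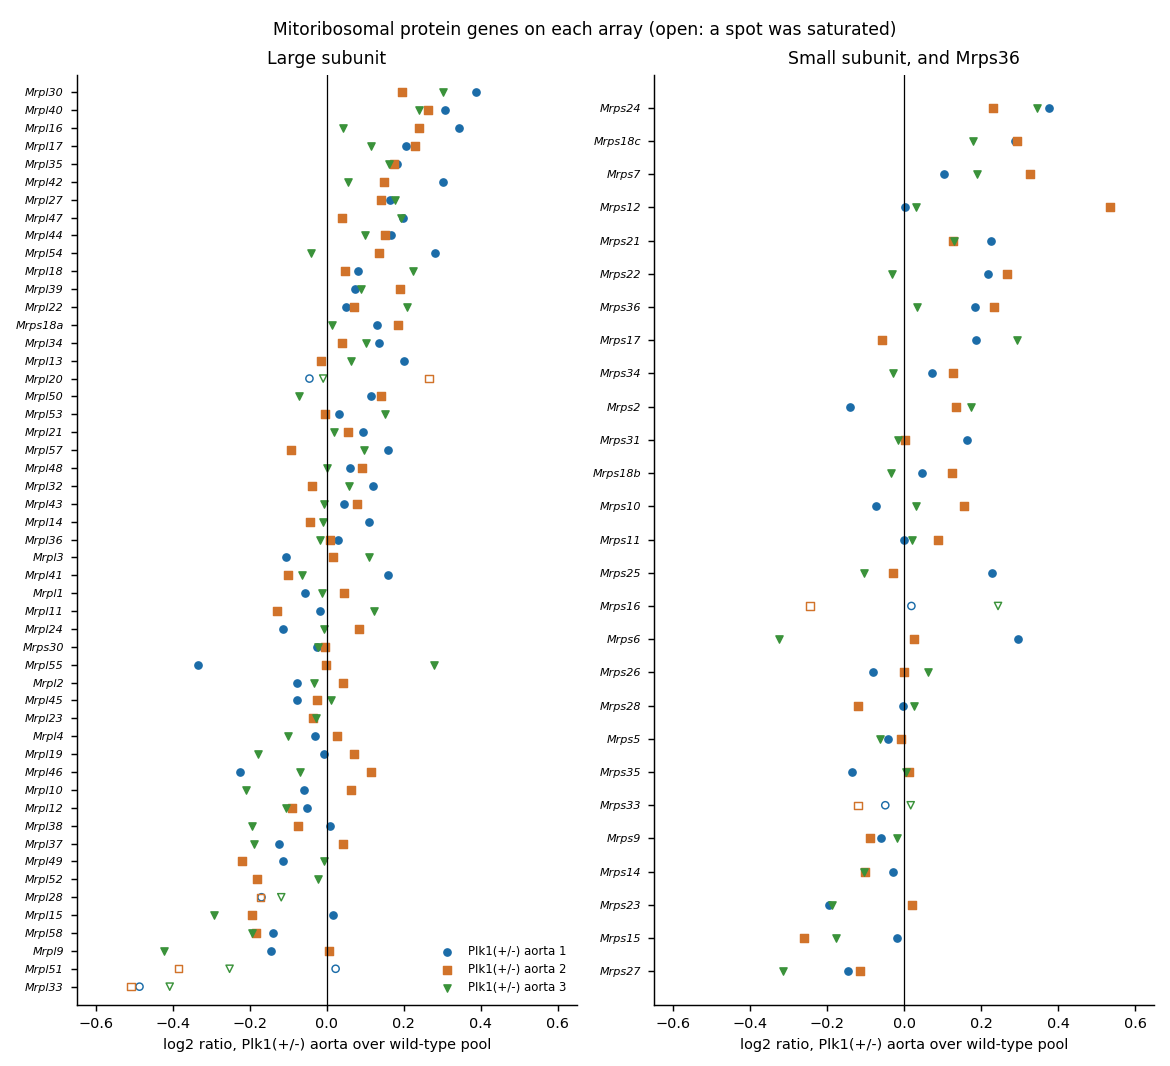
Log2 ratio of each Plk1(+/-) aorta over the WT pool (horizontal axis) for all 78 mitochondrial ribosomal protein genes, ordered by mean within each panel, with 1 symbol for each aorta. Open symbols are genes with a saturated spot on any array. Unsaturated genes had means between -0.19 for Mrps27 and 0.32 for Mrps24, and the 3 aortas scatter around 0.

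After loess, the intervals describe the mean ratio of the 3 Plk1(+/-) aortas to this pool. The spread among WT aortas and any dye effect are not in them, so they do not bound a genotype difference. They also hold for this scaling only: with median centring the members' means ran between 0.17 and 0.80. For all 72 genes the mean lay within 1.25-fold of the pool, which held for 85.3% of unsaturated features. All 72 also had 95% intervals that stayed inside 1.5-fold in either direction, against 79.5% of unsaturated features. The SD over the 3 arrays had a median of 0.09 for these genes and 0.15 over all unsaturated features, on the log2 scale. These genes are brighter than most features, and the share of their narrower spread that goes with brightness was not tested.

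**Figure D2:**
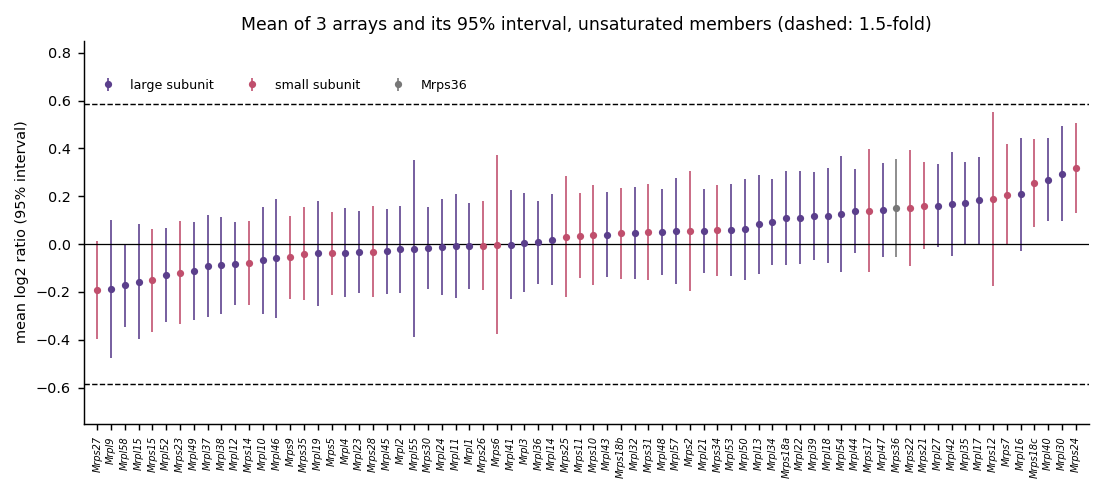
Mean log2 ratio over 3 arrays (points) with its 95% interval (bars, limma) for the 72 genes without a saturated spot, in order of the mean. Dashed lines mark 1.5-fold in either direction, and no interval reaches them.

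Large and small subunit genes both had medians close to 0. Over the 47 unsaturated large subunit genes the median log2 ratios were 0.04, 0.04 and -0.00049 in aortas 1, 2 and 3, and the means ran between -0.19 and 0.29. For the 24 unsaturated small subunit genes the medians were 0.00054, 0.02 and -0.0057, and the means ran between -0.19 and 0.32. An unadjusted p under 0.05 was reached by 4 of 47 large and 2 of 24 small subunit genes.

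Division by class of protein gave medians near 0 as well. Mrps18a and Mrps18b were classed as specific to mitochondria, although they derive from the bacterial S18 protein. Large subunit proteins with a bacterial counterpart (27 genes) had a median mean ratio of 0.0066, and those specific to mitochondria (20 genes) of 0.04. In the small subunit, the medians were 0.04 for 15 genes with a bacterial counterpart and 0.03 for 9 genes classed as specific to mitochondria. Mrps36 had log2 ratios of 0.18, 0.23 and 0.03 (adjusted p = 0.358, limma).

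Among small subunit proteins, Mrps24, the counterpart of a bacterial protein near the entry of the messenger channel, had the highest mean of all unsaturated members. Its log2 ratios were 0.38, 0.23 and 0.35, a mean of 0.32 ± 0.08 (SD, n = 3), which is 1.25-fold. The 3 aortas were on the same side of the pool, but the difference did not pass the test (adjusted p = 0.176, limma). Mrps24 had 1 probe on the array.

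Mrps18c is 1 of 3 genes derived from the bacterial S18 protein, and it had log2 ratios of 0.29, 0.29 and 0.18 (adjusted p = 0.202, limma). Its second probe, which crosses a gap in the genome and so joins adjoining parts of the transcript, gave 0.04, 0.08 and 0.14. Both probes were positive in every aorta, the second with smaller values, and neither passed the test. Mrps18a had 0.13, 0.18 and 0.01, and Mrps18b had 0.05, 0.12 and -0.03. The S18 relatives thus all had means above 0, with no adjusted p under 0.05 for any. The probes of Mrps18c are shown because their ratios differ in size; they share no stretch of 15 bases.
Mrps18c, probe within 1 block (mm7 chr5:100021187-100021246, + strand): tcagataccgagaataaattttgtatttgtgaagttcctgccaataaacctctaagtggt
Mrps18c, probe across a gap (mm7 chr5:100019894-100020812, + strand): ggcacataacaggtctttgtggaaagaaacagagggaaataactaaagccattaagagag

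Mrps7, the counterpart of a bacterial protein that helps to start assembly of the small subunit head, had 0.10, 0.33 and 0.19, and its second probe 0.12, 0.39 and 0.45. The first of these, which stands for the gene, had an adjusted p of 0.267 (limma). Lowest of the small subunit means was Mrps27, a mitochondria-specific protein with pentatricopeptide repeats, with log2 ratios of -0.15, -0.12 and -0.31 (adjusted p = 0.285, limma). Mrps15, which has a bacterial counterpart, followed with -0.02, -0.26 and -0.18. These values are all below 0, but a dimmer kept probe of Mrps15 gave -0.0067, 0.20 and -0.06. No small subunit gene passed the test in either direction.

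In the large subunit, Mrpl40, a mitochondria-specific protein, had 3 kept probes that lay on the same side of the pool. Probe 1, which stands for the gene, gave 0.31, 0.26 and 0.24, probe 2 gave 0.36, 0.36 and 0.29, and probe 3 gave 0.41, 0.34 and 0.24. Every value was above 0, and the gene's adjusted p was 0.188 (limma). In capitals below are the 24 bases that probes 2 and 3 share, so these are not independent measurements, and probe 1 lies apart from both.
Mrpl40, probe 1 (mm7 chr16:18421947-18422006, - strand): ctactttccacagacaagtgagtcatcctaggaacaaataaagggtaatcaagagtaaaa
Mrpl40, probe 2 (mm7 chr16:18422106-18422165, - strand): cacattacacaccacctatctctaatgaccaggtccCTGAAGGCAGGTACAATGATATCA
Mrpl40, probe 3 (mm7 chr16:18422070-18422129, - strand): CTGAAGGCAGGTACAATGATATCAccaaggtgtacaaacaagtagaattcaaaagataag

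Mrpl30, with a bacterial counterpart, had log2 ratios of 0.39, 0.19 and 0.30 (adjusted p = 0.193, limma). Mrpl35 had 0.18, 0.17 and 0.16, one of the narrowest spreads among the members (SD 0.01, n = 3, adjusted p = 0.262). Mrpl17 had 0.21, 0.23 and 0.12 (adjusted p = 0.262). Mrpl27, whose protein reaches to the peptidyl transferase centre, had 0.16, 0.14 and 0.18 (adjusted p = 0.283). Mrpl16 had 0.34, 0.24 and 0.04 (adjusted p = 0.299). By the probe that stands for each, these 5 genes were above the pool in every aorta, by less than 1.25-fold on average, and none passed the test. Their dimmer kept probes did not all do so. For Mrpl17 the dim probe gave -0.0058, -0.02 and -0.26, and for Mrpl27 0.02, -0.02 and 0.03. The dimmer probes of Mrpl35 gave 0.30, 0.19 and 0.22, and 0.39, 0.02 and -0.47.

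On the low side, Mrpl9 had -0.14, 0.0058 and -0.42, Mrpl58 had -0.14, -0.18 and -0.19, and Mrpl15 had 0.02, -0.19 and -0.29. Mrpl58 is also known as a peptidyl-tRNA hydrolase that frees stalled ribosomes. Only Mrpl58 of these 3 was below the pool in every aorta (adjusted p = 0.266, limma). Mrpl12, which is also known to bind the mitochondrial RNA polymerase, had -0.05, -0.09 and -0.11 (adjusted p = 0.518). Polrmt, that polymerase, had -0.08, 0.11 and 0.09.

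Mrpl33 had the smallest p of all members (adjusted p = 0.0995, limma) and no direction can be read for it. It had Cy5 mean signals of 65224, 65224 and 65224 in Plk1(+/-) aortas 1, 2 and 3, all at the ceiling, against 33511, 34496 and 30820 in Cy3 for the pool. The Cy5 value is therefore a lower bound. Its second probe was not well above background. Mrpl28 had saturated Cy5 spots on 2 arrays, and its second, unsaturated probe gave -0.07, -0.09 and -0.25. Mrps33 was saturated in Cy5 on all 3 arrays, and its unsaturated probes gave 0.19, 0.12 and 0.03 and 0.27, 0.17 and 0.14, all above 0. Those unsaturated probes of Mrps33 share a stretch of bases, so they are not independent measurements. Mrpl33, Mrpl51, Mrpl20 and Mrps16 were measured only by saturated probes among those kept.

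Agreement between probes of a gene set a limit on how small a ratio can be read. Of 32 genes with more than 1 kept unsaturated probe, 18 had probe means of both signs. Among the 18 are Mrps30 and Mrps18b, whose probes lie on opposite strands by their mm7 positions. Whether these read the same transcript was not tested. The spread between the probe means of a gene had a median of 0.11 and reached 0.46 for Mrpl52, on the log2 scale. Among the 22 genes with more than 1 such probe of mean log2 intensity of at least 10, the median was 0.09 and the highest was 0.31. Several of the widest spreads involve a dim probe: for Mrpl52 the bright probe gave -0.18, -0.18 and -0.02, and a dim one 0.28, 0.10 and 0.62.

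Bright probes also disagreed. For Mrpl44 the brightest gave 0.17, 0.15 and 0.10, while the others gave -0.04, -0.10 and -0.18, and -0.15, -0.14 and -0.23. The second probe of Mrpl47 gave -0.48, 0.48 and -0.50, against 0.20, 0.04 and 0.19 for the first. With each kept probe tested as its own feature, 16 of 126 (12.7%) had an unadjusted p under 0.05, 14 of them higher, against 18.8% of all 32493 kept probes. Again 0 of 126 passed at an adjusted p under 0.05, against 0.662% of all kept probes.

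**Figure D3:**
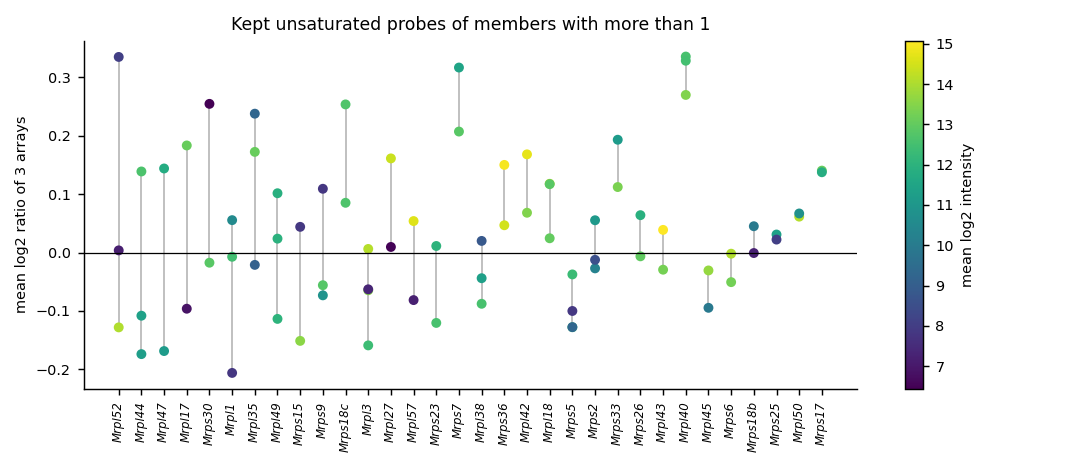
Mean log2 ratio over 3 arrays of each kept unsaturated probe (points, coloured by mean log2 intensity) for the 32 genes with more than 1, ordered by the spread between probes. Mrpl52 has the widest spread (0.46), and the 3 probes of Mrpl40 lie together above 0.

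The members differed in how far the aortas lay apart. The range over the 3 aortas had a median of 0.16 over the 72 genes, was above 0.3 in 11 and below 0.1 in 19. It was widest for Mrps6, with log2 ratios of 0.30, 0.02 and -0.33, and its second probe gave 0.23, -0.01 and -0.37. Mrpl55 ran the other way, with -0.33, -0.0012 and 0.28. Mrps12, whose protein sits at the decoding centre, stood apart in aorta 2 alone, with 0.0025, 0.53 and 0.03. Mrps6 and Mrpl55 were thus highest in different aortas. The highest ratio fell in aorta 1 for 27 genes, in aorta 2 for 29 and in aorta 3 for 16.

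The probes of Mrps6 are shown because the order of the aortas is the same in both; they do not overlap.
Mrps6, first probe (mm7 chr16:92162324-92162383, + strand): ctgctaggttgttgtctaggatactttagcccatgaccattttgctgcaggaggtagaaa
Mrps6, second probe (mm7 chr16:92162250-92162309, + strand): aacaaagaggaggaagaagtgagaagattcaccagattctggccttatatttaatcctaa
The start of Mrps6 lies 14 bases from that of Slc5a3, a sodium-coupled inositol carrier, on the same strand in RefSeq (GRCm38.p6). Slc5a3 had log2 ratios of 0.31, -0.14 and -0.80, so aorta 1 was highest and aorta 3 lowest for both genes, and neither passed the test (adjusted p = 0.994 for Mrps6 and 0.641 for Slc5a3, limma). This neighbour was chosen after its values were seen, and whether the probes share a transcript was not tested.

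Many of these genes start beside another gene. Of the 69 members in the RefSeq promoter table (GRCm38.p6), 27 (39.1%) had an annotated start of another gene on the opposite strand within 1000 bases, against 15.8% of all 27025 genes of the table. For 24 of the 27 the neighbour was measured here, and 1 of these neighbours was called, against 0.925% of all features. It was Fau, beside Mrpl49, with a saturated Cy5 spot on all 3 arrays. Of all features with a saturated spot 32.5% were called. Other pairs are named after seeing their values. Mrpl32 had 0.12, -0.04 and 0.06, against 0.49, 0.51 and 0.51 (adjusted p = 0.0799, limma) for its neighbour Psma2, a proteasome subunit. Helq, the neighbour of Mrps18c, had -0.19, -0.73 and -0.55 (adjusted p = 0.195), on the other side of 0 from Mrps18c.

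A single pair of members shares such a region: the starts of Mrpl46 and Mrps11 lie 42 bases apart on opposite strands. Mrpl46 had log2 ratios of -0.23, 0.11 and -0.07, and Mrps11 had -0.0015, 0.09 and 0.02. Both were highest in aorta 2, and neither passed the test (adjusted p = 0.743 and 0.789, limma). The 100 bases before the start of Mrps11 hold the start of Mrpl46 and the whole stretch between them.
Mrps11, 100 bases before its start (GRCm38.p6 chr7:78783031-78783130, + strand): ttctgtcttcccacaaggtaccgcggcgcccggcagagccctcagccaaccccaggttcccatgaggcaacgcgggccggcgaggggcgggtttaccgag

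Words known from binding sites of 3 regulators of nuclear genes for mitochondria were searched on both strands in the RefSeq promoters, 250 bases before to 50 after each start. The word CCGGAAG, typical of the ETS family to which Gabpa belongs, was found for 26 of 69 members (37.7%), against 9.93% of genes in the table. AAGATGGCG, a word of Yy1, was found for 8 of 69 (11.6%), against 1.64%. GCATGCGC, a word of Nrf1, was found for 8 of 69 (11.6%), against 3.05%. The word GGGCGG of the GC box, was found for 49.3% of members and 38.2% of genes. CCAAT was found for 39.1% of members and 41.1% of genes, and CACGTG for 7.25% and 8.09%. None of these words contains another, though GCATGCGC and its reverse complement can overlap. A match says only that the letters are there.

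The Yy1 word is shown in 30 bases of each of the 8 genes, in capitals, as AAGATGGCG or its reverse complement. In 6 of them it reads on the gene's strand, with its first base at position 12 to 37 counted from the start as 1.
Mrpl35 (GRCm38.p6 chr6:71823742-71823771, - strand): ggcaggctgcAAGATGGCGgcttccatctt
Mrpl36 (GRCm38.p6 chr13:73330968-73330997, + strand): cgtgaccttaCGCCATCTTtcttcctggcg
Mrpl37 (GRCm38.p6 chr4:107066821-107066850, - strand): tgcacgggcaAAGATGGCGgcgtccaggta
Mrpl42 (GRCm38.p6 chr10:95501903-95501932, - strand): agattgaagcAAGATGGCGagcgcgcggtg
Mrps11 (GRCm38.p6 chr7:78783013-78783042, + strand): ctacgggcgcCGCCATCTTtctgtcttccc
Mrps18a (GRCm38.p6 chr17:46111005-46111034, + strand): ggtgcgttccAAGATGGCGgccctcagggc
Mrps24 (GRCm38.p6 chr11:5707652-5707681, - strand): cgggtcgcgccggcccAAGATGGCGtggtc
Mrps27 (GRCm38.p6 chr13:99344790-99344819, + strand): ggtgcgctccAAGATGGCGgctcccatggt

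The ratios of members with and without these words overlapped. The 8 genes with the Yy1 word had a median mean log2 ratio of 0.07 and held both the highest unsaturated member, Mrps24, and the lowest, Mrps27. For the other 55 unsaturated genes with a promoter the median was 0.04. For the ETS word the medians were 0.06 over 22 genes with it and 0.0066 over 41 without, and for the Nrf1 word 0.05 over 7 and 0.04 over 56. Of the regulators, Gabpa had log2 ratios of 0.10, 0.14 and 0.04, Yy1 had 0.11, -0.15 and -0.28, and Nrf1 had -0.09, 0.07 and 0.10. None of the 3 passed the test (adjusted p = 0.480, 0.591 and 0.859, limma).

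Genes around the mitochondrial ribosome were read from lists of the same fit. Of 5 ribosomal proteins with other symbols, Gadd45gip1 had log2 ratios of 0.02, 0.40 and 0.29 (adjusted p = 0.301, limma), and Dap3, which binds GTP, had 0.10, -0.04 and -0.01. Ptcd3 had -0.05, -0.01 and -0.03, and Chchd1 had 0.07, -0.0042 and 0.13. Aurkaip1 had 1 saturated Cy5 spot and gets no fold. None of the 5 passed the test.

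The 13 measured translation factors had a median mean ratio of -0.03, with 0 of 13 called. At an unadjusted p under 0.05 were 2 of 13 (15.4%), a share near the 17.8% of all unsaturated features. These were Metap1d, a mitochondrial methionine aminopeptidase, with -0.29, -0.23 and -0.19 (adjusted p = 0.212, limma), and Tsfm, the exchange factor of the elongation factor Tufm, with -0.19, -0.20 and -0.24 (adjusted p = 0.227). Tufm itself had 0.27, 0.0057 and -0.07. The 25 assembly factors had a median of -0.0034 and 0 calls. Among them Tfb1m, a methyltransferase of the small ribosomal RNA, had 0.10, 0.26 and 0.27 (adjusted p = 0.254), and Ybey, an endonuclease, had 0.20, 0.14 and 0.25 (adjusted p = 0.246).

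Mitochondrial tRNA synthetases and their partners had a median of 0.01 over 19 unsaturated genes. The only call in that list was Lars2, lower, on a probe saturated in Cy5 on all 3 arrays. The list for mitochondrial DNA and RNA upkeep had a median of 0.03 over 18 genes with 0 calls. Tfam, which packages mitochondrial DNA, had -0.09, 0.21 and 0.24 (adjusted p = 0.532).

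The respiratory chain and the cytosolic ribosome could be compared only in part. Of 76 measured respiratory chain and ATP synthase genes 63 had a saturated spot, and all 39 calls, each lower, were among these. Over all features with a saturated spot, 32.5% passed. The 13 unsaturated genes of the respiratory chain had a median of 0.08 and 0 calls. Of 79 cytosolic ribosomal protein genes 57 had a saturated spot, with all 16 calls among them, each lower. A Cy5 spot at the ceiling gives only a lower bound, so no direction was read from calls on saturated probes in either list. Median log2 ratios in aortas 1, 2 and 3 were 0.04, 0.04 and 0.0022 for the mitochondrial ribosome, against 0.07, 0.11 and 0.46 for the 22 unsaturated genes of the cytosolic one. The difference between the families was not tested.

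Several lists of cell type markers lay farther from 0 on these arrays than the mitochondrial ribosome did. Median log2 ratios in aortas 1, 2 and 3 were 0.14, 1.33 and 1.65 for 10 lymphocyte markers and -0.69, -0.95 and -2.93 for 9 skeletal muscle markers. They were -0.33, -1.32 and -0.95 for 6 unsaturated smooth muscle markers and -0.41, -1.003 and -0.39 for 7 adventitial fibroblast markers. All 10 smooth muscle markers of the list, the defining cells of the aortic wall, read well above background in Cy5 and Cy3 on every array. Each of the 10 lymphocyte and 11 skeletal muscle markers was so too. No marker of these 4 lists was absent, and the part of cell makeup in the members' ratios was not tested.

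**Figure D4:**
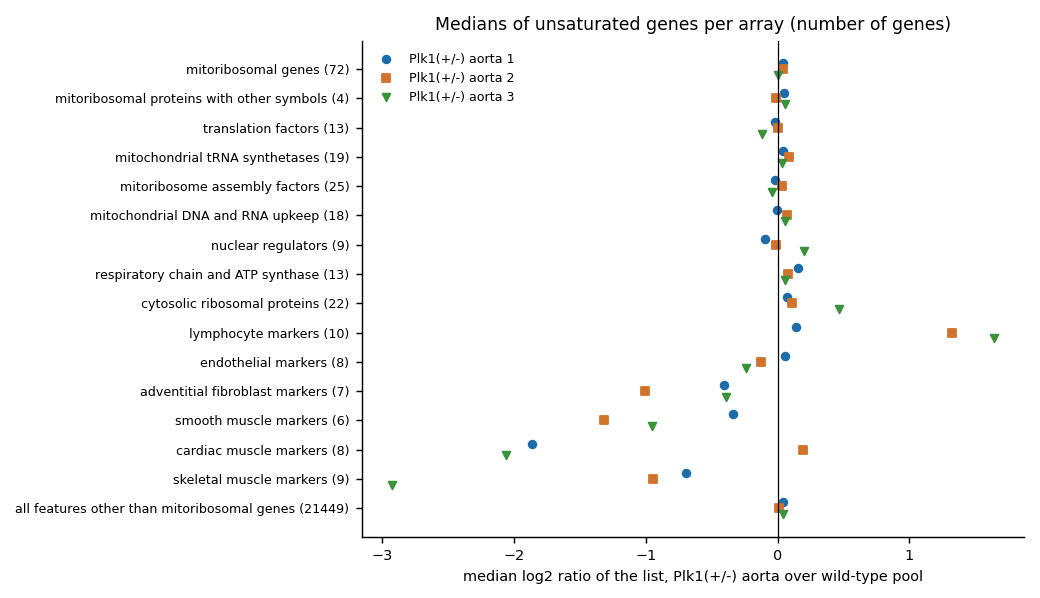
Median log2 ratio over the unsaturated genes of each list in Plk1(+/-) aortas 1, 2 and 3 (symbols), over the WT pool; the number of genes is in brackets. The mitochondrial ribosomal protein genes lie at 0.04, 0.04 and 0.0022. Farthest from 0 are cardiac muscle markers in aorta 1 (-1.87), lymphocyte markers in aorta 2 (1.33) and skeletal muscle markers in aorta 3 (-2.93).

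The direction of the family as a whole depends on how the dyes are scaled. With each array's log ratios centred on their median in place of loess, 71 of 78 members passed, all higher, with a median of 0.49 over the 72 unsaturated genes and a range of 0.17 to 0.80. Under that scaling 9771 of 22050 features passed and the median of all unsaturated features was 0.23. The 2004 other unsaturated features between the members' intensity quartiles had a median of 0.48 under that scaling, close to the members' own. Under loess the members' median of 0.04 stood against 0.0043 for those features. With the log ratio of the authors' deposited scanner files it was -0.0079 for the members, against -0.0096 for those features. Of the 72 members, 36 lie between those quartiles. Relative to the 2004 features, the median of all 72 was higher by 0.03 under loess, 0.01 under median centring and 0.0017 with the deposited log ratio.

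**Figure D5:**
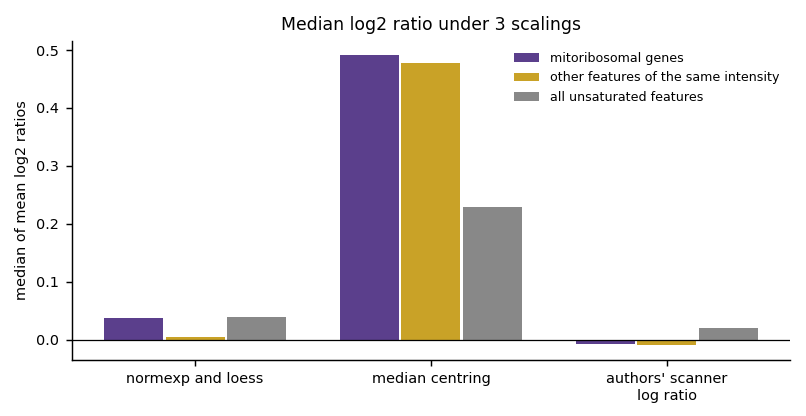
Median of mean log2 ratios, Plk1(+/-) aortas over the WT pool, under 3 scalings. The sets are the 72 unsaturated mitochondrial ribosomal protein genes, 2004 other unsaturated features between their intensity quartiles, and all unsaturated features. Bars start at 0. Median centring lifts the members to 0.49 and the 2004 features to 0.48.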

How the data were processed

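Aorta RNA of 3 Plk1(+/-) samples, labelled as biological replicates, was hybridised on 1 slide against 1 pool of 3 WT samples. Although the labels' growth protocol is one for embryonic stem cells, the tissue label was followed. The deposited scanner files hold spot intensity values which per the file headers come from Feature Extraction 9.5.3.1. The deposited log10 ratio is of processed Cy5 over Cy3, per the file headers, and the authors' series table holds log2 values whose centring is not stated (medians -0.02, -0.0052 and -0.03).

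Mean signals were corrected with normexp (offset 50) and loess (R 4.3.3, limma 3.58.1 and version 1.17.8 of the data.table package). Flagged outlier spots (100 to 136 per array) were left out. A probe was kept if, on 2 arrays or more, Cy5 or Cy3 read well above background, and the brightest kept probe stood for a gene. Ratios were tested against 0 with lmFit and eBayes, with Benjamini-Hochberg adjustment over 22050 features. The fit was also run on simulated independent ratios around known values, which hold no shared pool, dye effect or saturated spot. Names were updated through a RefSeq listing (GRCm38.p6): 22951 probes matched by accession, 6659 by symbol, 3109 by synonym, and 8455 kept the file's name. Genomic positions of probes are the array's mm7 ones, and exon or UTR positions were not analysed here.

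Members and lists were chosen with earlier results of these data known. Members named were the 10 smallest p, the 5 highest and 5 lowest unsaturated means, the 4 brightest, the S18 relatives, Mrpl12, Mrps36 and members whose probes differ in sign; of each other list, the 2 smallest p and fixed regulators. Others were named after seeing their values. 1 gene that the rule names is not reported here. Alternatives numbered 15, plus 1 chosen after seeing the data.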

Additional observations from a re-analysis of the deposited data

How the results depend on the processing

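No paired analysis was possible because the series has 1 group of arrays, each against the same pool. Count of features called over all: 9771 with median centring, 125 with the authors' deposited scanner log ratio, 91 with a normexp offset of 0, and 0 with saturated features left out, against 204; leaving out 1 array gave 0 to 175. At an unadjusted p under 0.05 (limma) were 3808 features with saturated ones left out, and 1984 and 3096 without aorta 2 and without aorta 3, the fits with 0 calls. Members called were 71 with median centring and 0 under each other alternative, including leave-one-out and the added one, in which the brightest unsaturated probe stood for each of 74 members. Members at an unadjusted p under 0.05 were 70 with median centring, 15 of 120 unsaturated probes with every kept probe as a feature, and 1 to 4 with 1 array left out, against 6. The median of the members was 0.49 with median centring and -0.0079 with the scanner log ratio and the series table, and 0.018 to 0.037 with 1 array left out, lowest without aorta 2. For the large subunit these medians were 0.50 and -0.017, and 0.047 with offset 0, 0.0047 with the mean over kept probes and 0.025 to 0.032 with 1 array left out, against 0.019. For the small subunit they were 0.47 and -0.00041, and 0.010 to 0.054 with 1 array left out. Of the 36 named members, the sign of the mean turned for 18 with median centring, 9 with the mean over kept probes, 3 with the scanner log ratio or the series table, and 0 to 2 under the others. Of genes named at an unadjusted p under 0.05, it turned with median centring for Mrpl33 (0.037), Metap1d (0.16) and Tsfm (0.24). The cause was not tested. The dye orientation, the single pool and saturated Cy5 spots limit all of these values.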
